A study of Mus musculus with 16 samples.

Results

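The nuclear-encoded subunits and assembly factors of respiratory complex I were followed in mouse kidney through 47 of the 20355 probes on a cDNA array, which stand for 36 of the 9930 genes that the probes name. Members were all probes with a single platform symbol that starts with Nduf, a rule that uses no measured value. The group itself was chosen with earlier results of these data known. The 36 genes lie on 16 chromosomes, with at most 5 on any of them. Values for 35 genes, from 46 probes, could be tested. Ndufaf1, which acts in assembling the membrane arm of the complex, had values on 8 arrays, and 1 further spot sat at an extreme value. Both dye orientations were measured in mice 1 and 2 but not in mice 3 and 4, so it was not tested. Its arrays read 3.48, 0.35 and -0.56 in mouse 1, -0.34 and 3.14 in mouse 2, 0.78 and 1.31 in mouse 3 and -0.67 in mouse 4, with both signs among them. Ndufa11, Ndufa12, Ndufs5, Ndufb1, Ndufb6 and the subunits encoded in mitochondrial DNA were not analysed here.

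The mutants were 4 male mice labelled MFP2-/-, aged 15 weeks, and the control was RNA pooled from 5 wild-type males of the Swiss strain SWR/Ola Hsd, also aged 15 weeks. MFP2 is an enzyme of peroxisomes, the product of Hsd17b4, and takes part in breaking down fatty acids that are branched or very long. Total kidney RNA of each mutant was hybridised with the pool on 4 two-channel arrays, 2 with the mutant in the Cy5 dye and 2 with it in the Cy3 dye, which gave 16 arrays. The labels of mouse 1 give 2 different numbers for it. The labels give the strain of the mutants only as MFP2-/-, and the part of background strain was not tested.

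Complex I passes electrons from NADH to ubiquinone and pumps protons across the inner mitochondrial membrane. Its peripheral arm, which lies in the matrix, holds the flavin and the iron-sulfur clusters, and its membrane arm holds the proton channels. Core subunits carry out catalysis, accessory subunits surround and stabilise them, and assembly factors help to build the complex without staying in it. In the kidney, tubule cells are rich in mitochondria, which supply the ATP for ion transport.

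The deposited values are log2 ratios, and positive ones are read here as higher in the mutant than in the pool. This direction is inferred rather than stated. It rests on spots at an extreme value, which were positive where the mutant was in Cy5 and negative where it was in Cy3, and on labels that list the mutant as the first channel. Over all probes, arrays of the same mouse in opposite dyes had a median Pearson r of -0.167, and those of different mice in opposite dyes one of -0.110. The ranges overlapped, from -0.302 to 0.062 and from -0.357 to 0.065. Were the values mutant over pool, the shared RNA of a mouse should make the first r the higher, and it was the lower. These correlations thus do not bear out the direction, on which every sign below depends. The log base was inferred from the values. Array medians were set to 0, both dye orientations were averaged for every mouse, and the 4 mice were tested against 0 with limma. The pool is 1 control sample, so variation between wild-type mice could not be measured. Each array held 19737 to 20228 values, with 34 or 35 of the 35 tested members among them. The files used here hold no intensities, which leaves signal over background unknown, and an array ratio in whole kidney cannot tell fewer cells of a type from less RNA per cell.

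Hsd17b4, the targeted gene, was measured by 2 probes that disagree. Probe 1446 gave 0.02, 0.83, 0.34 and 0.52 in mice 1 to 4, and probe 4590 gave -1.69, -1.50, -0.10 and -0.34. Their mean was -0.24 ± 0.45 (SD, n = 4 mice), with a limma adjusted p of 0.655. The stretch of the gene under either probe is not known here. Neither value therefore checks the genotype, and the mice are called by their labels.

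Complex I transcripts stood slightly above the pool on average, and no single one passed the test. Of 35 members, 33 had a positive mean log2 ratio (94.3%), against 50.1% of the 16140 rows tested, where a row is a named gene or an unnamed probe. The median over members was 0.12, within a range of -0.10 to 0.39, and the median over all rows was 0.00. With limma and Benjamini-Hochberg adjustment over all rows, 0 of 35 members and 0 of 16140 rows (0%) were called at an adjusted p under 0.05. The smallest adjusted p was 0.548 among members and 0.327 among all rows. At an unadjusted p under 0.05, 2 members lay higher in the mutants (5.71%), against 5.83% of all rows, and 0 lay lower, against 3.21% of all rows. Leaving out mouse 1, 2, 3 or 4 in turn changed the count of 2 to 10, 1, 0 and 1. The share of all rows was then 5.56%, 4.09%, 4.87% and 3.41%.

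The pattern rested on mouse 2 more than on the others. The arrays of mouse 2 also held the fewest values, 19737 to 19816, against 19939 to 20228 on those of the other mice. They had the most spots at an extreme value, 55 to 71, against 12 to 35. The part of array quality was not tested. Without mouse 2, 25 of 35 members had a positive mean and their median was 0.04. Without any one of mice 1, 3 and 4, the count stayed between 32 and 33 and the median between 0.14 and 0.20. If the values were instead ratios of Cy5 over Cy3, 20 of 35 members would have a positive mean and the median would be 0.02. Members are measured in the same RNA and are not independent of each other, so their count is a description.

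**Figure D1:**
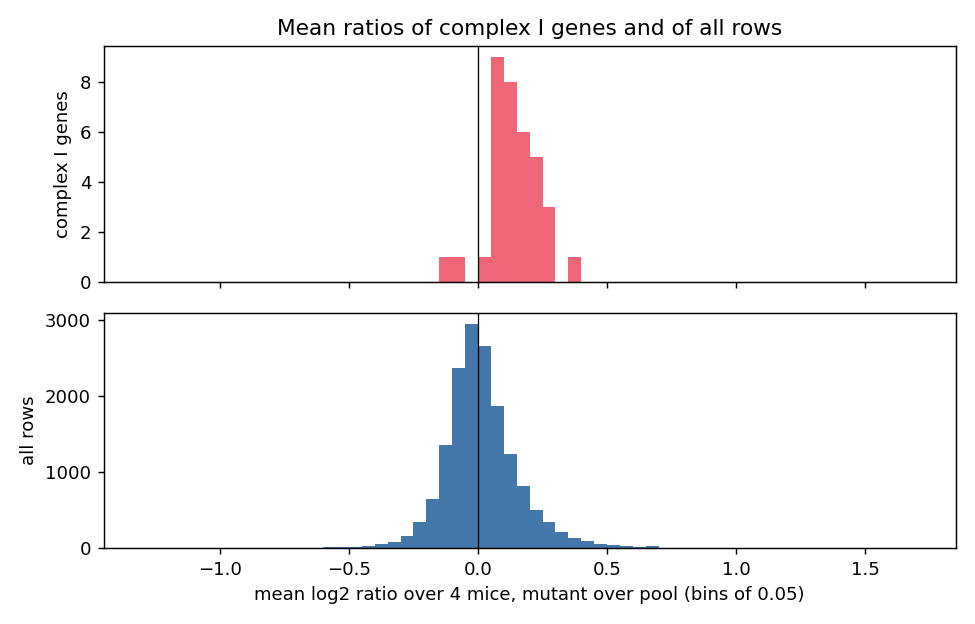
Mean log2 ratio over 4 mice (mutant over pool, x axis) of the 35 complex I members, as a histogram above that of all 16140 rows, with counts on the y axes. Of the members, 33 lie right of 0, between 0 and 0.39, inside the spread of all rows.

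The 6 core subunits tested all had positive means, with a median of 0.17. Ndufv1 binds the flavin and takes electrons from NADH. It gave 0.07, 0.50, 0.25 and 0.22 in mice 1 to 4, a mean of 0.26 ± 0.18 (SD, n = 4; limma adjusted p = 0.548). All mice were above 0, mouse 2 most and mouse 1 least. On the arrays, with the 2 repeats in Cy5 before the 2 in Cy3, Ndufv1 had 0.09, 0.32, -0.22 and 0.08 in mouse 1 and 0.36, 0.51, 0.54 and 0.59 in mouse 2. It had 0.01, 0.21, 0.30 and 0.48 in mouse 3 and 0.21, 0.07, 0.43 and 0.19 in mouse 4. Of its 16 arrays, 1 was below 0. A fit over the 16 arrays with mouse as random block and a dye term, which treats arrays rather than mice as samples, gave Ndufv1 an adjusted p of 0.0448. It was the 1 member of 35 called there, where 221 of 16140 rows were called. The correlation between arrays of the same mouse was set at 0.0355 in that fit, so they counted as nearly independent.

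Ndufs3, a core subunit of the peripheral arm near the quinone site, gave 0.02, 0.57, 0.09 and 0.35 in mice 1 to 4, a mean of 0.26 ± 0.25 (SD, n = 4; limma adjusted p = 0.548). Its arrays read 0.54, -0.07, -0.23 and -0.18 in mouse 1, 0.44, 0.49, 0.72 and 0.63 in mouse 2, -0.60, 0.37, 0.56 and 0.02 in mouse 3 and 0.60, 0.14, 0.52 and 0.17 in mouse 4. Mice 2 and 4 were positive on every array, while mice 1 and 3 held both signs. Ndufs1, the largest core subunit and the carrier of several iron-sulfur clusters, gave -0.07, 0.60, 0.24 and 0.23, a mean of 0.25 ± 0.28 (SD, n = 4; limma adjusted p = 0.570). Its arrays read -0.35, -0.16, 0.28 and -0.07 in mouse 1, 0.32, 0.68, 0.69 and 0.72 in mouse 2, 0.27, 0.04, 0.00 and 0.63 in mouse 3 and 0.02, 0.10, 0.30 and 0.49 in mouse 4. Mouse 1 lay apart on the low side and mouse 2 on the high side, with mice 3 and 4 almost equal.

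Among the other core subunits, Ndufs7 and Ndufs8 carry the iron-sulfur clusters closest to ubiquinone, and Ndufv2 holds a cluster beside the flavin. Ndufs7 varied least of all members between mice, with 0.11, 0.07, 0.13 and 0.04 and a mean of 0.09 ± 0.04 (SD, n = 4). Ndufs8 gave -0.03, 0.14, -0.05 and 0.22, a mean of 0.07 ± 0.13. Ndufv2 gave 0.02, 0.29, -0.14 and 0.05, a mean of 0.05 ± 0.18. Ndufs8 and Ndufv2 thus held both signs.

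All 8 accessory subunits of the peripheral arm had positive means, with a median of 0.12, and none of them was above 0 in every mouse. Ndufa6, a small protein that binds the acyl carrier protein, gave -0.08, 0.68, 0.17 and 0.34, the highest mean of this arm at 0.28 ± 0.32 (SD, n = 4; limma adjusted p = 0.573). Ndufa9, which binds a nucleotide cofactor, gave -0.08, 0.45, 0.15 and 0.16, a mean of 0.17 ± 0.22. Ndufa5 gave -0.20, 0.29, 0.53 and 0.06, a mean of 0.17 ± 0.31, and was highest in mouse 3. Both were below 0 in mouse 1.

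Ndufs4, whose loss in mice causes a fatal encephalopathy, gave -0.07, 0.48, 0.04 and 0.04, a mean of 0.12 ± 0.25 (SD, n = 4). Its arrays read -0.14, 0.10, -0.22 and -0.03 in mouse 1, 0.50, 0.54, 0.50 and 0.39 in mouse 2, -0.18, 0.20, -0.04 and 0.16 in mouse 3 and 0.17, -0.14, 0.02 and 0.09 in mouse 4. The 4 arrays of mouse 2 lay above all 12 of the other mice. Ndufs6, a zinc-binding subunit, gave -0.21, 0.37, 0.06 and 0.18, a mean of 0.10 ± 0.24. Its arrays read -0.05, -0.38, -0.33 and -0.08 in mouse 1, 0.35, 0.42, 0.28 and 0.45 in mouse 2, 0.13, -0.15, 0.18 and 0.09 in mouse 3 and 0.30, 0.11, 0.02 and 0.29 in mouse 4. All arrays of mouse 1 were negative and all of mouse 2 positive.

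Ndufa7 gave -0.11, 0.39, 0.10 and 0.11, a mean of 0.12 ± 0.20, and Ndufa2 gave -0.20, 0.35, -0.01 and 0.07, a mean of 0.05 ± 0.23. Ndufv3, an accessory partner of the flavin-binding subunit, was among the 3 lowest members, with 0.19, 0.11, -0.04 and -0.08 and a mean of 0.04 ± 0.13 (SD, n = 4). Its arrays read 0.17, -0.14, 0.13 and 0.59 in mouse 1, -0.23, 0.51, 0.06 and 0.11 in mouse 2, -0.01, -0.12, -0.40 and 0.36 in mouse 3 and 0.06, -0.34, 0.03 and -0.07 in mouse 4. Every mouse held both signs.

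Of the 16 accessory subunits of the membrane arm, 15 had a positive mean, and the median was 0.14. Ndufc1 had the highest mean of all tested members, with 0.07, 0.66, 0.58 and 0.24 in mice 1 to 4 and a mean of 0.39 ± 0.28 (SD, n = 4; limma adjusted p = 0.548). Its arrays scattered more than those of any other member, with a repeat SD of 0.88 against a median of 0.24 over members. They read -0.96, 0.39, 0.84 and 0.00 in mouse 1, 1.25, -0.15 and 0.78 with 1 missing in mouse 2, -0.53, 0.39, 2.42 and 0.04 in mouse 3 and 0.24, 0.12, 0.30 and 0.29 in mouse 4. The single array at 2.42 was the highest value of any tested member on any array, and mouse 3 is high through it.

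Ndufb8, an accessory subunit whose protein is widely used as a marker of assembled complex I, gave 0.13, 0.59, 0.11 and 0.14, a mean of 0.24 ± 0.23 (SD, n = 4; limma adjusted p = 0.548). Its arrays read -0.01, 0.03, 0.19 and 0.29 in mouse 1, 0.22, 0.75, 0.38 and 1.02 in mouse 2, -0.07, -0.06, 0.22 and 0.36 in mouse 3 and 0.22, -0.00, 0.27 and 0.07 in mouse 4. Mouse 2 stood apart and the other 3 mice were nearly equal in the mean of its 2 probes. Ndufb11, an X-linked subunit of the membrane arm, gave 0.01, 0.52, 0.09 and 0.27, a mean of 0.22 ± 0.23 (limma adjusted p = 0.563). Its arrays read 0.12, 0.36, -0.27 and -0.16 in mouse 1, 0.40, 0.75, 0.54 and 0.40 in mouse 2, 0.41, 0.52, -0.41 and -0.17 in mouse 3 and 0.74, 0.67, -0.12 and -0.20 in mouse 4. In mice 1, 3 and 4 the arrays split by dye, and those with the mutant in Cy5 were the positive ones.

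Ndufa1, also X-linked, gave -0.31, 0.56, 0.05 and 0.22, a mean of 0.13 ± 0.36 (SD, n = 4). Its arrays read 0.01, -0.12, -0.58 and -0.55 in mouse 1, 0.39, 0.77, 0.39 and 0.68 in mouse 2, 0.15, 0.26, -0.05 and -0.17 in mouse 3 and 0.47, 0.37, 0.16 and -0.13 in mouse 4. Mouse 2 lay wholly above mouse 1. Ndufa8, which faces the intermembrane space, spread most between mice, with -0.27, 0.85, 0.07 and 0.31 and a mean of 0.24 ± 0.47 (SD, n = 4). Single arrays at -1.47 in mouse 1 and 1.96 in mouse 2 weigh on this spread, and its repeat SD was 0.59. Ndufa13, known also as a cell death regulator, gave -0.25, 0.72, -0.10 and 0.11, a mean of 0.12 ± 0.42. In mouse 2, 1 array read 1.91 and the others -0.04, 0.43 and 0.56. Ndufb5 gave -0.09, 0.48, -0.34 and 0.21, a mean of 0.06 ± 0.36, and its low value in mouse 3 rests on 1 array at -1.50.

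The next 8 subunits of the membrane arm all had their highest value in mouse 2. Ndufb9 had a mean of 0.23 ± 0.28, Ndufb4 of 0.18 ± 0.26, Ndufc2 of 0.17 ± 0.22 and Ndufb3 of 0.15 ± 0.20 (SD, n = 4 each). Ndufa3 had a mean of 0.14 ± 0.19, Ndufb7 of 0.11 ± 0.23, Ndufb10 of 0.09 ± 0.26 and Ndufb2 of 0.08 ± 0.24. In mouse 2 these 8 lay between 0.33 and 0.62. Ndufa10, which resembles a nucleoside kinase, was the exception of this arm with a mean of -0.05 ± 0.09, from -0.06, -0.00, -0.17 and 0.02. Its arrays read 0.10, 0.04, -0.18 and -0.20 in mouse 1, -0.20, 0.07, 0.17 and -0.04 in mouse 2, -0.24, -0.09, -0.38 and 0.02 in mouse 3 and 0.19, -0.06, 0.04 and -0.09 in mouse 4. No mouse had 1 sign throughout.

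Ndufab1, the mitochondrial acyl carrier protein, is bound in both arms and also serves fatty acid synthesis in the matrix. It gave -0.03, 0.52, -0.08 and -0.07, a mean of 0.09 ± 0.29 (SD, n = 4), and was above 0 in mouse 2 alone. That value rests on 1 array, since mouse 2 read 0.09, -0.05, 2.00 and 0.06 on its arrays, and with the median of arrays the mean of Ndufab1 was -0.03. Of the 4 assembly factors tested, 3 had a positive mean, and their median was 0.08. Ndufaf3, an early assembly factor, gave 0.10, 0.34, 0.21 and -0.01, a mean of 0.16 ± 0.15. Its value in mouse 2 rests on 1 array at 1.64, while the others read -0.54, 0.02 and 0.25. Ndufaf7, a mitochondrial methyltransferase, gave -0.05, 0.24, 0.05 and 0.18, a mean of 0.10 ± 0.13, and Ndufaf6 gave 0.04, 0.27, -0.08 and -0.02, a mean of 0.05 ± 0.15. Ndufaf5, which in human cells hydroxylates an arginine of Ndufs7, had the lowest mean of all members at -0.10 ± 0.19 (SD, n = 4; limma adjusted p = 0.704), from -0.21, -0.31, 0.09 and 0.02. Its arrays read -0.36, -0.07, -0.23 and -0.17 in mouse 1, 0.03, 0.02, 0.03 and -1.33 in mouse 2, 0.34, 0.04, -0.12 and 0.11 in mouse 3 and 0.21, -0.15, 0.06 and -0.01 in mouse 4. The low value of mouse 2 came from 1 array.

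**Figure D2:**
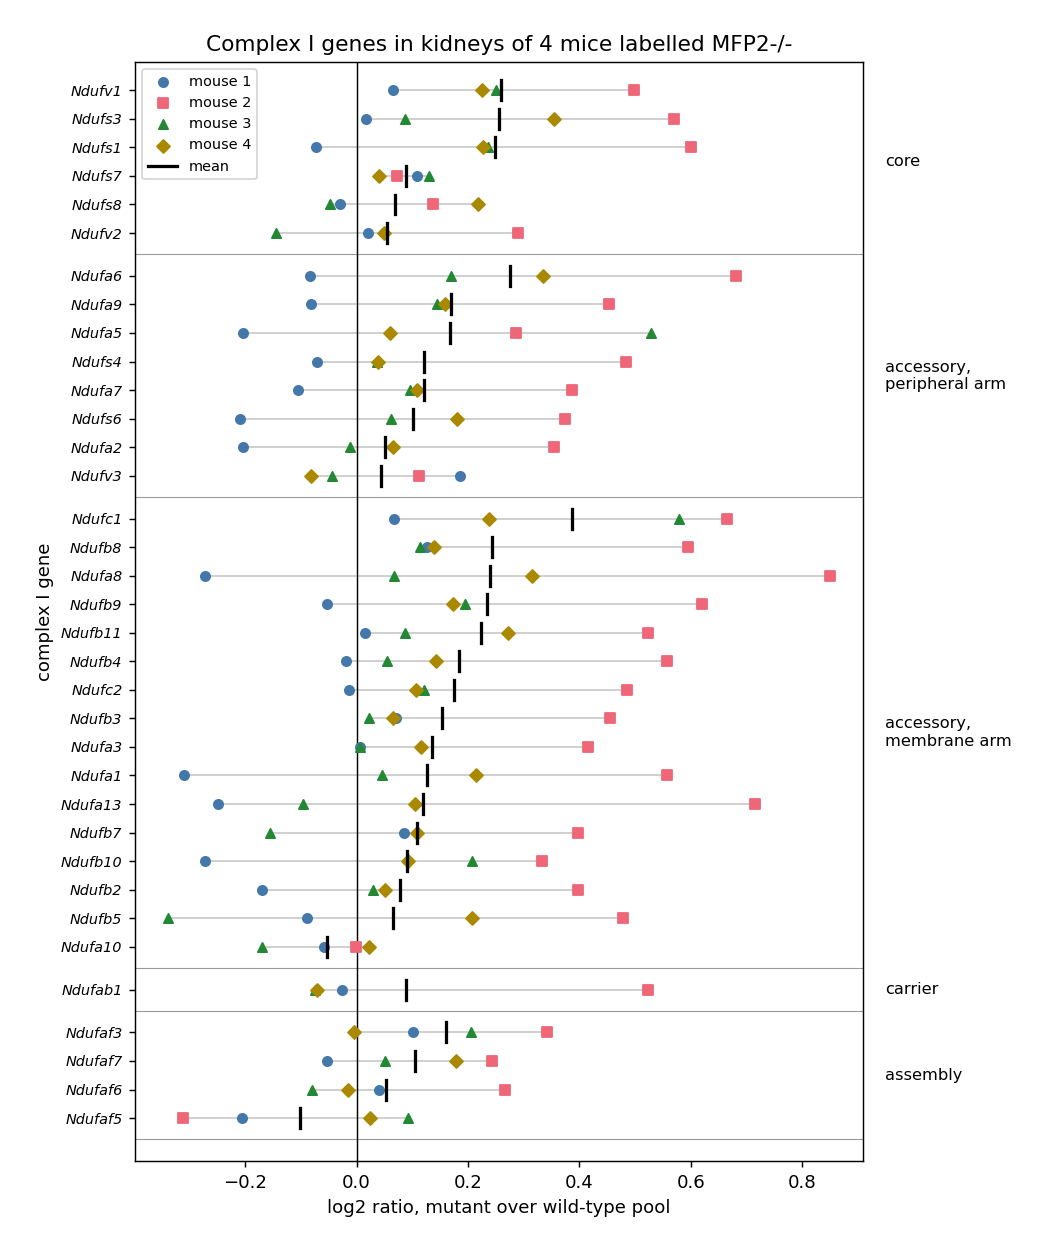
Log2 ratio (mutant over pool, x axis) of each of the 35 complex I members in the 4 mice labelled MFP2-/-, with members grouped by role down the page. Points are mice and bars are means over mice. Mouse 2 is the highest point for 29 of 35 members and mouse 1 the lowest for 21.

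For 10 genes more than 1 probe was measured, 21 probes in all, and the probes had the same sign of mean for 8 of them. The highest and lowest probe of a gene differed by 0.02 to 0.34, with a median of 0.10. Ndufa5 had the widest gap, with 0.34 ± 0.53 on probe 11039 and -0.00 ± 0.11 on probe 13973 (SD, n = 4 mice). Its high value in mouse 3 was 0.98 on the first probe and 0.08 on the second. Ndufa10 had 0.05 ± 0.18 on probe 1596 and -0.15 ± 0.09 on probe 13642, and in mouse 2 they read 0.27 and -0.27. These are the genes with probes of opposite sign.

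The other genes with several probes differed less. Ndufs7 had 0.01 ± 0.07 on probe 13585 and 0.17 ± 0.11 on probe 17037, so its narrow spread between mice is that of their mean. Ndufs6 had 0.04 ± 0.26 on probe 3849, 0.20 ± 0.28 on probe 15918 and 0.07 ± 0.25 on probe 19723. Ndufb10 had 0.16 ± 0.15 on probe 18134 and 0.02 ± 0.43 on probe 19192. The negative value of Ndufb10 in mouse 1 came from the second probe, at -0.56, while the first read 0.01.

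Ndufc2 had 0.14 ± 0.21 on probe 2871 and 0.21 ± 0.25 on probe 10646. Ndufb8 had 0.21 ± 0.27 on probe 3129 and 0.27 ± 0.22 on probe 17383, and both were highest in mouse 2, at 0.61 and 0.58. Ndufa1 had 0.10 ± 0.40 on probe 16042 and 0.15 ± 0.32 on probe 18557, again with both highest in mouse 2, at 0.56 and 0.56. The probes of these genes put the mice in the same place at the top.

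Ndufs4 had 0.13 ± 0.26 on probe 3297 and 0.11 ± 0.26 on probe 10871, with 0.47 and 0.50 in mouse 2. Ndufa3 had 0.15 ± 0.38 on probe 16697 and 0.12 ± 0.04 on probe 16808, close in mean but not in mouse 2, where they read 0.70 and 0.13. The mice therefore separated on 1 probe of Ndufa3 and not on the other.

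Several members have the same short motif just inside the start of the gene, and those stretches are shown because they are shared across roles. RefSeq promoters of build GRCm38.p6, 250 bases before to 50 bases after the start of a gene, were found for 32 of 36 members, as 34 promoters of 300 bases. Motifs known from promoters of respiratory genes were looked for by exact match on both strands. AAGATGGCG, the core of the YY1 motif, which contains the letters ATG, was in 5 of 34 member promoters (14.7%), against 1.4% of all 32851. In the sequences below, 5′ to 3′ on the strand of the gene, capitals mark this motif.
Ndufa9 (chr6:126849096-126849125, minus strand): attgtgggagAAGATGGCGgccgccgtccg
Ndufc1 (chr3:51408914-51408943, minus strand): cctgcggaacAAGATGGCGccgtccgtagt
Ndufs4 (chr13:114388045-114388069, minus strand): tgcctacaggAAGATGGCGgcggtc
Ndufs6 (chr13:73328433-73328459, minus strand): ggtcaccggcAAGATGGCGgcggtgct
Ndufs7 (chr10:80249463-80249492, plus strand): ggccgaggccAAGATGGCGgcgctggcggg

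Counted from 1 at the first base of the gene, the motif began at base 30 in Ndufa9, 23 in Ndufc1, 36 in Ndufs4, 34 in Ndufs6 and 25 in Ndufs7, always on the strand of the gene. These 5 members had mean log2 ratios of 0.17, 0.39, 0.12, 0.10 and 0.09. Yy1 itself, the transcription factor that binds this motif, had 0.18 ± 0.10 (SD, n = 4; limma adjusted p = 0.548), but -0.03 when only the Cy5-labelled mutants were averaged. A match is a description of letters and not a bound site.

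CGCATGCG, a core of the NRF-1 motif, was in 2 member promoters (5.88%), those of Ndufa8 and Ndufaf5, against 1.87% of all. The match in Ndufaf5 lay inside the gene, at bases 18 to 25. Mean log2 ratios were 0.24 for Ndufa8 and -0.10 for Ndufaf5, and a link between motif and ratio was not tested. CCGGAAG, an Ets motif bound by GABP, was in 4 (11.8%), those of Ndufaf1, Ndufb7, Ndufs3 and Ndufs8, against 8.86% of all. TCAAGGTCA, a motif of estrogen-related receptors, was in 0, against 0.423% of all. At least 1 of the 4 motifs was in 11 member promoters (32.4%), against 11.8% of all, and none of them held more than 1 kind of motif. The 100 bases before the start are shown for 1 gene of each of the motifs found there, again with the motif in capitals. In Ndufa8 it lies 9 to 2 bases before the start and in Ndufs3 27 to 21 bases before it. Ndufs3 had a further Ets match on the opposite strand, at bases 2 to 8 of the gene, past the stretch shown.
Ndufa8 (chr2:36049339-36049438, minus strand): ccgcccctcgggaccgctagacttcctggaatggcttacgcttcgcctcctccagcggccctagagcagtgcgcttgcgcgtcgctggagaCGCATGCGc
Ndufs3 (chr2:90904722-90904821, minus strand): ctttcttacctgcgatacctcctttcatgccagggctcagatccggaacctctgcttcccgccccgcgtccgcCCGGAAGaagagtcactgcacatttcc

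The mutants were not alike in complex I transcripts. The medians over members were -0.05, 0.45, 0.06 and 0.11 in mice 1 to 4, while the median over all rows stayed between -0.01 and 0.01. Of 35 members, 13, 33, 25 and 31 were positive in mice 1 to 4. Of all rows, 48.0 to 51.6% were positive in a mouse. Of all rows, 65.2%, 8.02%, 34.4% and 23.7% lay at or above the members' median in mice 1 to 4.

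Mouse 2 was the highest of the 4 for 29 of 35 members (82.9%), against 31.0% of the 15856 rows with a value in every mouse. Mouse 1 was the lowest for 21 members (60%), against 24.7% of those rows. With the median of a mouse's arrays in place of the mean, mouse 2 was the highest for 27 members and mouse 1 the lowest for 24. This order depends on the direction of the ratios. Read as Cy5 over Cy3, the members' medians in mice 1 to 4 would be 0.10, -0.05, 0.02 and 0.07, and mouse 2 would be the highest for 4 members (11.4%), against 29% of rows. In mouse 2, 22 members were positive on all 4 of its arrays, against 15.1% of all rows. There, 0 members were negative on all, against 12.8% of all rows, so rows of 1 sign were common in this mouse in both directions. In mouse 1, 0 members were positive on every array, against 5.88% of all rows, and 3 were negative on every array, against 4.91% of all rows. In mouse 3, 3 members were positive on every array, against 6.90% of all rows, and in mouse 4 there were 6, against 8.6%. Positive values in all 4 mice were found for 8 members (22.9%), against 10.2% of all rows. They were Ndufv1, Ndufs3, Ndufs7, Ndufa3, Ndufb3, Ndufb8, Ndufb11 and Ndufc1, which include 3 core subunits and no assembly factor. For Ndufs7 and Ndufa3 this held for the mean of their probes only. Probe 13585 of Ndufs7 read -0.025 and -0.059 in mice 2 and 3. Probe 16697 of Ndufa3 read -0.056 and -0.12 in mice 1 and 3.

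By array, with the 2 repeats in Cy5 before the 2 in Cy3, the median over members was 0.04, 0.10, -0.22 and -0.17 in mouse 1 and 0.22, 0.49, 0.54 and 0.44 in mouse 2. It was 0.01, 0.14, -0.05 and 0.02 in mouse 3 and 0.28, 0.11, 0.08 and -0.02 in mouse 4. Each array of mouse 2 was above every array of mice 1 and 3, and the first array of mouse 4 lay inside the range of mouse 2. The SD between mice had a median of 0.23 over members and 0.15 over all rows, while the SD between repeats was 0.24 over members and 0.27 over all rows. The first is between means over the arrays of a mouse and the second between single arrays, so the 2 are not on the same scale.

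**Figure D3:**
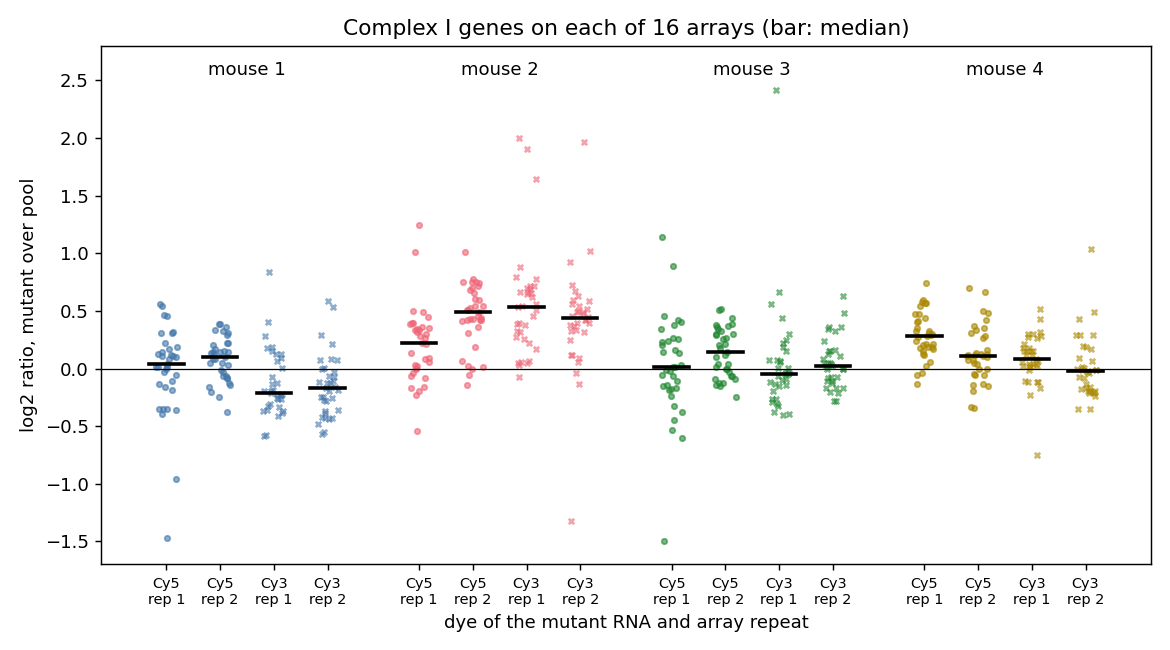
Log2 ratio (mutant over pool, y axis) of the 35 complex I members on each of the 16 arrays, ordered by mouse and by dye along the x axis, with the median over members on each array marked. The 4 arrays of mouse 2 have member medians of 0.22 to 0.54, and those of mouse 1 of -0.22 to 0.10.

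Whether the mice differed by more than their own arrays was tested with limma's F-test over 16 arrays, with a term for dye. At an adjusted p under 0.05, 0 of 35 members and 30 of 15856 rows (0.189%) were called. The smallest adjusted p among members was 0.053 for Ndufa1, followed by 0.136 for Ndufs4 and 0.146 for Ndufs6. At an unadjusted p under 0.05 there were 17 members (48.6%), against 11.2% of all rows. That count was 4 without mouse 2 (11.4%), against 8.15% of rows, and 10 without mouse 1 (28.6%), against 10.2%. Leaving out mouse 3 gave 18, against 9.98% of rows, and leaving out mouse 4 gave 19, against 10.8%. These p-values compare the spread between mice with that between arrays of the same RNA.

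Read as mutant over pool, some members differed with the dye that held the mutant. The dye term of the same fit, mutant in Cy5 minus mutant in Cy3, was called for 4 of 35 members in the positive direction (11.4%), against 3.69% of all rows. It was called for 0 members in the negative direction, against 4.71% of all rows. Ndufb11 averaged 0.50 where the mutant was in Cy5 and -0.05 where it was in Cy3, a difference of 0.54 ± 0.11 (SE, 16 arrays; limma adjusted p = 0.0175). What the dye term means depends on the direction of the ratios. Were they Cy5 over Cy3, it would measure the mutant against the pool instead of the dye. In that reading the mean of mutant over pool would be 0.27 for Ndufb11 and 0.32 for Ndufb9. The test against the pool would then call 0 of 35 members.

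Ndufb9 averaged 0.55 where the mutant was in Cy5 and -0.09 where it was in Cy3, a difference of 0.64 ± 0.15 (SE; limma adjusted p = 0.0260). Its arrays read 0.19, 0.23, -0.37 and -0.25 in mouse 1, 0.49, 1.01, 0.56 and 0.42 in mouse 2, 0.89, 0.36, -0.19 and -0.28 in mouse 3 and 0.57, 0.70, -0.76 and 0.19 in mouse 4. Ndufb3 had 0.35 in Cy5 and -0.05 in Cy3, a difference of 0.40 ± 0.11 (SE; limma adjusted p = 0.0378). Its arrays read 0.56, 0.29, -0.20 and -0.37 in mouse 1, 0.39, 0.72, 0.33 and 0.38 in mouse 2, -0.11, 0.44, -0.07 and -0.17 in mouse 3 and 0.41, 0.13, -0.12 and -0.16 in mouse 4. In both genes mouse 2 was positive with either dye, while mouse 1 was positive only with the mutant in Cy5. Ndufa7 was the fourth member called.

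These calls depended on the mice used. Leaving out mouse 1, 3 or 4 brought the count of members called for dye to 0, when 0.0314%, 0.00629% and 0.0252% of all rows were called in the positive direction. Leaving out mouse 2 brought the count to 8 (22.9%), against 8.54% of all rows. It was also 8 with the arrays not centred, against 13.1% of all rows. Differences in the other direction did not pass: Ndufa8 averaged -0.11 where the mutant was in Cy5 and 0.59 where it was in Cy3, a difference of -0.70 ± 0.24 (SE; limma adjusted p = 0.0768). Ndufc1 had 0.09 in Cy5 and 0.68 in Cy3, a difference of -0.62 ± 0.37 (adjusted p = 0.275). Over all 35 members the median was 0.14, with 28 positive, on the Cy5 arrays, and 0.11, with 23 positive, on the Cy3 arrays.

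**Figure D4:**
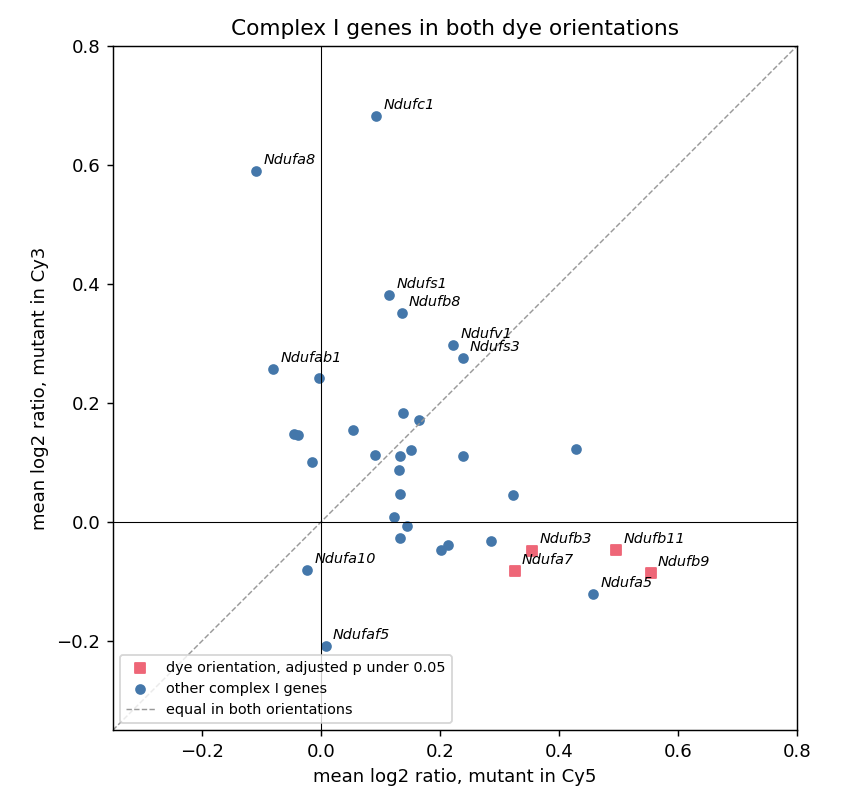
Mean log2 ratio (mutant over pool) of each complex I member on arrays where the mutant was in Cy5 (x axis) and where it was in Cy3 (y axis). Ndufb9 lies to the Cy5 side, at 0.55 and -0.09, while Ndufc1, at 0.09 and 0.68, and Ndufa8, at -0.11 and 0.59, lie to the Cy3 side.

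Other genes of the respiratory chain, in lists chosen for their complexes, had similar averages, and 0 of them were called against the pool. The median log2 ratio was 0.12 over 8 assembly factors of complex I with other names, of which 6 were positive. Timmdc1, a membrane assembly factor, had 0.38 ± 0.31 and Acad9, which pairs with Ndufaf1 in assembly, 0.14 ± 0.17 (SD, n = 4). These and the genes named next are those with the smallest p of each list, not the highest means. Timmdc1 was highest in mouse 3, at 0.80, rather than in mouse 2, at 0.11.

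Complex II, which passes electrons from succinate, had a median of 0.12 with 3 of 4 genes positive, and includes Sdhd at 0.32 ± 0.25 and Sdhb at 0.19 ± 0.24. Complex III had a median of 0.12 with 7 of 8 positive, and includes Uqcr10 at 0.22 ± 0.16 and Uqcrc2 at 0.26 ± 0.34. Complex IV, cytochrome c oxidase, had a median of 0.20 with 11 of 11 positive, and includes Cox4i1 at 0.23 ± 0.13 and Cox5b at 0.22 ± 0.13. ATP synthase had a median of 0.20 with 12 of 13 positive, and includes Atp5b at 0.30 ± 0.22 and Atp5o at 0.23 ± 0.18.

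Mouse 2 had the highest median in each of these complexes, while the lowest place varied. The medians in mice 1 to 4 were 0.07, 0.40, -0.08 and 0.11 for complex II and -0.06, 0.30, 0.06 and 0.15 for complex III. They were -0.04, 0.38, 0.09 and 0.25 for complex IV and 0.02, 0.45, 0.01 and 0.20 for ATP synthase. Mouse 1 was lowest in complexes III and IV, and mouse 3 in complex II and ATP synthase. Genes that follow mitochondrial mass, such as porins and carriers, had a median of 0.10 with 7 of 10 positive, and includes Vdac1 at 0.39 ± 0.18 and Slc25a5 at 0.32 ± 0.22. Regulators of mitochondrial biogenesis had a median of -0.01 with 4 of 8 positive, and includes Yy1 and Tfam, a factor of mitochondrial DNA transcription, at 0.15 ± 0.17 (SD, n = 4 each).

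The 3 other named genes whose values followed the mean of complex I members most closely over the 16 arrays were Uqcrc2, Nat8f3 and Cox6c. Their Pearson r was 0.949, 0.942 and 0.933, out of 9031 genes compared. The arrays share the pool and, in fours, the RNA of a mouse, so these values describe likeness only. Uqcrc2 is a subunit of complex III and Cox6c of complex IV. Nat8f3 belongs to a family of acetyltransferases.

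Markers of kidney cell types were read beside these values, and 0 of them were called against the pool. Of 9 proximal tubule markers, 8 were positive, with a median of 0.24 and a range of -0.20 to 0.66, and with medians of -0.00, 0.35, 0.11 and 0.26 in mice 1 to 4. Of 5 markers of the loop of Henle, 3 were positive, with a median of 0.35 and 0.20, 0.75, 0.22 and 0.29 by mouse. Mouse 2 had the highest median for these lists, as for complex I.

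Distal tubule markers were positive in 4 of 4 cases, with a median of 0.15 and 0.15, 0.13, 0.22 and 0.16 by mouse. Collecting duct markers were positive in 2 of 3 cases, with a median of 0.19 and 0.43, -0.01, 0.10 and 0.11 by mouse. Mouse 2 had the lowest median for both of these lists, which hold 4 and 3 genes. In each list 1 gene was nevertheless highest in mouse 2, S100g at 1.16 and Aqp2 at 0.81. The part of tubule content in the complex I values was not tested. Endothelial markers were positive in 4 of 5 cases, with a median of 0.14, and the podocyte marker Podxl had 0.23. Leukocyte markers were positive in 2 of 5 cases, with a median of -0.02 and mouse medians of -0.02, -0.03, -0.05 and -0.02. Erythrocyte markers were positive in 0 of 3 cases, with a median of -0.07, and adipocyte markers in 2 of 3, with a median of 0.12. A ratio does not show how abundant a marker is, so the labelled tissue could not be checked by level.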

How the data were processed

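Per the labels, kidney RNA of individual mutants and of the wild-type pool was reverse transcribed, labelled with Cy3 or Cy5 and hybridised to two-channel cDNA arrays. The authors deposited log2 ratios per probe for 16 arrays; how these were normalized and corrected for background, their log base and their direction stand in no source used here. Probe symbols came from the platform annotation, updated through RefSeq GRCm38.p6: 14030 probes had 1 symbol, 5 had several and 13994 were updated, with 0 member symbols changed.

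Values with an absolute size over 10 (12 to 71 spots an array) were treated as missing. Deposited array medians, from -0.149 to 0.098, were set to 0. Values were averaged within a dye orientation and then over both. Probes were kept where at least 3 mice had both orientations. Probes of a gene were averaged. limma 3.58.1 (R 4.3.3) tested the mean over 4 mice against 0, and mice and dye over 16 arrays, with Benjamini-Hochberg adjustment at 0.05. The scripts were tested on simulated data. Nothing says how the repeat arrays were prepared.

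The members and gene lists were chosen with earlier results of these data known. Named were all members, those with the 6 smallest p, 3 lowest means and 3 smallest p between mice and for dye array by array, and the 2 genes with the smallest p of each other respiratory list.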

Additional observations from a re-analysis of the deposited data

Results flagged for a closer look

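Of 35 complex I members with a value in 4 mice, 3 had 1 mouse far from the other 3, past Dixon's critical value for the gap over the range. In each it was mouse 2 on the high side. Chance flags about 1 in 20 groups. The share over all rows was not worked out and members are measured in the same RNA, so the count is a description. Ndufab1, the acyl carrier protein, had 0.52 in mouse 2, against -0.03 in the nearest other mouse, a gap of 0.919 of the range. It rests on 1 array at 2.00, while the other 3 arrays of mouse 2 read 0.09, -0.05 and 0.06. Ndufb3, of the membrane arm, had 0.46 in mouse 2, against 0.07 in the nearest, a gap of 0.890. Ndufb8, also of the membrane arm, had 0.59 in mouse 2, against 0.14 in the nearest, a gap of 0.949. That is the mean of 2 probes, and on each probe the other mice lay less close together. Mice 1 to 4 read 0.12, 0.61, 0.12 and 0.01 on probe 3129. On probe 17383 they read 0.14, 0.58, 0.11 and 0.27.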

How the results depend on the processing

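No paired analysis was possible because the only control is 1 pool. Across the settings tried, the median over complex I members kept its sign and 0 members were called between mice. Leaving out 1 mouse at a time gave 0 to 8 members called for dye, and 8 were called without centring, in settings chosen after seeing the data. Of 16140 rows, the number called against the pool was 3 with the mutant in Cy5 alone and 1 with it in Cy3 alone. It was 12 read as Cy5 over Cy3 and 221 with the mouse as a random block. The block called 1 of 35 members. The reading as Cy5 over Cy3 left 20 members positive and 4, not 29, highest in mouse 2. That last comparison was added after seeing the data. The cause of these differences was not tested. Alternatives that need intensities (background correction, dim probes) were not run.

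No log2 ratio below passed the test in any setting where its sign turned. With the mutant in Cy5 alone the turned values were Ndufa13 -0.0039, Ndufa2 -0.046, Ndufa8 -0.11, Ndufab1 -0.081, Ndufaf5 0.0077, Ndufv2 -0.039, Ndufv3 -0.014 and Yy1 -0.031. With the mutant in Cy3 alone the turned values were Ndufa1 -0.033, Ndufa5 -0.12, Ndufa7 -0.082, Ndufaf6 -0.027, Ndufb11 -0.047, Ndufb2 -0.048, Ndufb3 -0.048, Ndufb9 -0.086, Ndufs7 -0.038, Ndufs8 -0.0066 and Acad9 -0.035. On array repeat 1 alone the turned values were Ndufa8 -0.0075, Ndufaf7 -0.0034, Ndufb5 -0.026, Ndufv2 -0.029 and Ndufv3 -0.025. On array repeat 2 alone the turned value was Ndufab1 -0.02. Read as Cy5 over Cy3 the turned values were Ndufa10 0.029, Ndufa13 -0.12, Ndufa2 -0.097, Ndufa8 -0.35, Ndufa9 -0.0035, Ndufab1 -0.17, Ndufaf3 -0.022, Ndufaf5 0.11, Ndufaf7 -0.051, Ndufb8 -0.11, Ndufc1 -0.29, Ndufs1 -0.13 and Ndufs3 -0.018. In the same reading they were Ndufs6 -0.010, Ndufv1 -0.037, Ndufv2 -0.093, Ndufv3 -0.058, Hsd17b4 0.090, Timmdc1 -0.11, Sdhd -0.0091, Sdhb -0.062, Cox5b -0.0092, Yy1 -0.21, Vdac1 -0.013 and Slc25a5 -0.29. With the median of arrays the turned value was Ndufab1 -0.029. With a value on every array the turned value was Ndufa5 -0.0037. Leaving out 1 mouse at a time, the range was -0.017 to 0.27 for Ndufa1, -0.080 to 0.24 for Ndufa13, -0.051 to 0.14 for Ndufa2, -0.057 to 0.14 for Ndufab1, -0.018 to 0.097 for Ndufaf6, -0.030 to 0.16 for Ndufb2, -0.073 to 0.20 for Ndufb5, -0.025 to 0.12 for Ndufv2 and -0.0044 to 0.085 for Ndufv3.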
